A study of Saccharomyces cerevisiae with 4 samples.

Results

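Histone H3 phosphorylated at threonine 45 (H3T45p) was compared with total H3 in budding yeast treated with hydroxyurea. Single windows of 150 bp were used, without a separate minimum on H3. A window was called only with enough reads in the pair of libraries, which 4267 windows did not have. Windows poor in H3 were thus partly left out. The members were all 80474 windows of chromosomes 1 to 16, of the 81046 windows in the files, and 2 of the 4 libraries of the series. Both libraries came from strain BY4741 grown in YPD to mid-log phase and given 200 mM hydroxyurea for 2 h, one made with a polyclonal antibody to H3 phospho-Thr45 and one with a polyclonal antibody to the C terminus of H3. The other pair, made with the same antibodies from cells without treatment, is used only for values set side by side. Each group held 1 library, so no difference below has a replicate check and no test was run. The sample titles number the hydroxyurea libraries 1 and the untreated libraries 2, so any effect of that number and the treatment cannot be told apart. None of the 4 libraries is an input or a mock immunoprecipitation, so DNA that any antibody recovers was not measured.

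Threonine 45 lies in the part of H3 that contacts DNA where it enters and leaves the nucleosome. Cdc7, named in the title of the series, is the kinase that with its partner Dbf4 fires replication origins. Hydroxyurea inhibits ribonucleotide reductase, which lowers deoxynucleotide pools and slows replication forks. Yeast promoters commonly hold a nucleosome-depleted region just upstream of the first nucleosome of a gene, so H3 ChIP shows short valleys between long occupied stretches.

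The files hold a signal per window that is a whole number of reads times 1 factor per library. In nuclear windows the H3T45p library had 23575911 reads, with a median of 249 per window, and the H3 library 28688895 reads, with a median of 306. The median window had an H3T45p signal of 283 and an H3 signal of 277 on the authors' scale. The interquartile range was 158 to 452 for H3T45p and 155 to 436 for H3. The signal is an average over a culture, so more cells carrying the mark and more mark per cell cannot be told apart. With 1 scaling factor for a library, these values cannot show a change in H3T45p over the genome as a whole. No source used here names the genome build. Positions are therefore in the files' own coordinates, counted from 1, and windows were not assigned to genes.

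Over most of the genome the signals were close to each other. Among windows with 50 or more reads in the pair, H3T45p was 1.00 times H3 in the median, with an interquartile range of 0.89 to 1.13. The scaling factors of the libraries set where this centre lies. Only the spread of the ratio about it therefore describes the windows. The ratio lay within a factor of 1.5 of equality in 90.9% of them. The tails were unequal, with a 1st percentile of 0.54 and a 99th percentile of 4.03. The Spearman correlation of both signals was 0.943 over these windows, which share their neighbours and their mappability. Of all nuclear windows, 3056 had no read in either library.

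**Figure D1:**
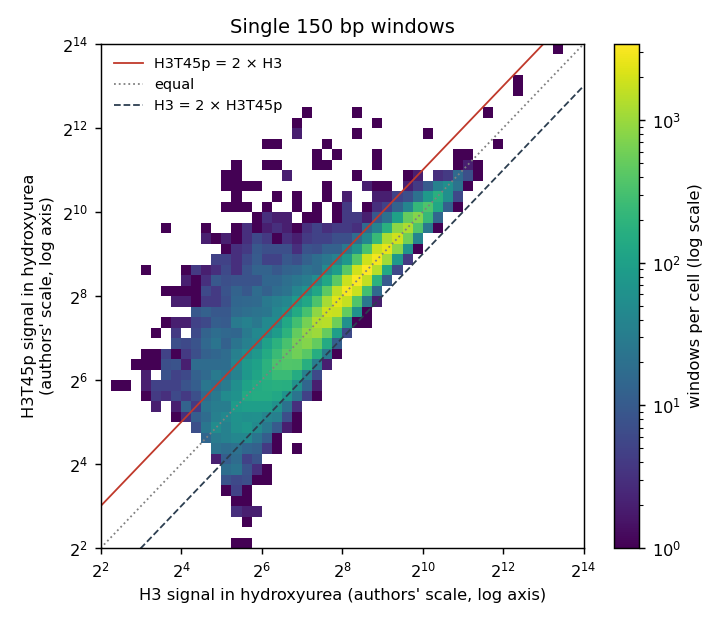
Number of 150 bp windows by H3 signal (x axis) and H3T45p signal (y axis) in hydroxyurea, both on the authors' scale and log axes, for windows with 50 or more reads in the pair; colour gives the windows per cell and the lines mark equal signals and a 2-fold difference either way. Most windows follow the line of equality, and the cloud above the upper line lies mainly at low H3.

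Windows in which H3T45p exceeded H3 were mostly windows with little H3, not windows with much H3T45p. The H3T45p signal was at least 2 times the H3 signal in 2231 windows, which is 2.93% of the 76207 windows with 50 or more reads in the pair. Their median H3 signal was 57.1, against a genome median of 277, and 2173 of them lay under that median. Their median H3T45p signal was 213, also under the genome median of 283, and 784 of them lay at or above it. The rule itself favours low H3, so these values describe the chosen windows. The ratio was 3 or more in 1183 of them, 5 or more in 538 and 10 or more in 151.

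The opposite departure was met less often and rested on fewer reads. H3 was at least 2 times H3T45p in 494 windows, or 0.648% of those with enough reads. Their median was 103 reads in the pair, against 258 for the windows in which H3T45p was higher. The lower bound of the exact binomial 95% interval of the ratio, which covers counting error only, stayed at or above 2 in 1401 of the 2231 windows (62.8%) and in 31 of the 494 (6.28%). At 200 or more reads in the pair the counts were 1399 and 44. With no read minimum they were 2367 and 936. The read minimum favours higher H3T45p where H3 is poorest, and it left no other outcome for 135 of the 2231. In untreated cells H3T45p reached 2 times H3 in 803 windows, or 1.05% of those with enough reads. Just inside the limit, 335 windows had H3T45p at 2 to 2.2 times H3, with a median H3 of 95.1. Just outside it, 540 had 1.8 to 2 times, with a median H3 of 108. The limit therefore cuts through a continuous range.

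The share of windows past the limit fell with the H3 level, and its value in the poorest class depended on the read minimum. In windows whose H3 was under 12.5% of the genome median, 58.0% had H3T45p at 2 or more times H3 (605 of 1044). With so few H3 reads the minimum of 50 in the pair keeps mainly windows with more H3T45p, and it left no other outcome for 135 of these 605. With no read minimum, a setting added after the data had been seen, 33.0% of 2248 windows of this class passed and 19.7% had the opposite departure. Between 12.5 and 25% of the median 21.1% passed, and between 25 and 50% it was 6.53%. The next classes, up to 100% and up to 200% of the median, had shares of 1.11% and 0.18%. Above 200% of the median, 5 of 11506 windows passed. H3 in hydroxyurea is also the denominator of the ratio, so these classes are not independent of it. The classes were therefore also taken from H3 in untreated cells, a library that does not enter the ratio.

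With classes from untreated H3 the poorest windows departed in both directions. Under 12.5% of the untreated median, 32.6% of 1172 windows had H3T45p at 2 or more times H3 in hydroxyurea, and 13.2% had H3 at 2 or more times H3T45p. With no read minimum the poorest class had 21.9% and 25.1% of 2359 windows, so the order of the directions there turned with the minimum. The next class, up to 25%, had shares of 18.3% and 6.27%, and the one up to 50% had 6.37% and 1.17%. Above 200% they were 0.40% and 0, out of 12365 windows. The ratio of the class medians was 1.22 in the poorest class, 1.07 in the next and between 0.97 and 1.02 in the others. So the windows poor in H3 had a wide spread of ratios, while windows rich in H3 stayed near equality.

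Neighbouring windows that passed formed 1137 stretches over 334.65 kb. Of these, 517 (45.5%) were a single window, 335 were 2 windows wide, 182 were 3 and 103 were 4 or more. The median width was 300 bp and the widest stretches were 1500 bp. The 103 widest held 22.3% of the passing windows. The opposite departures formed 462 stretches, of which 431 (93.3%) were a single window and 1 was 3 windows wide. H3T45p excess thus often came in runs, though 45.5% of its stretches were a single window. The opposite departure was almost always 1 isolated window. It was also rarer, at 0.648% against 2.93% of windows, which favours single windows.

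Most stretches were valleys in both signals, deeper in H3 than in H3T45p. Each stretch was set against its flanks, the windows 3 to 10 windows away on either side that did not pass, which was possible for 1127 stretches. H3 was at a median of 0.18 of its flank signal (interquartile range 0.11 to 0.28) and was under the flanks in 1102. H3T45p was at a median of 0.55 of its flanks (0.33 to 0.84) and was also under them in 926 (82.2%). In untreated cells the same stretches were at 0.23 of the flanks for H3 and 0.39 for H3T45p. The valley was thus present in all 4 libraries, and in hydroxyurea it was shallower for H3T45p and deeper for H3, as the choice of stretches favours.

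**Figure D2:**
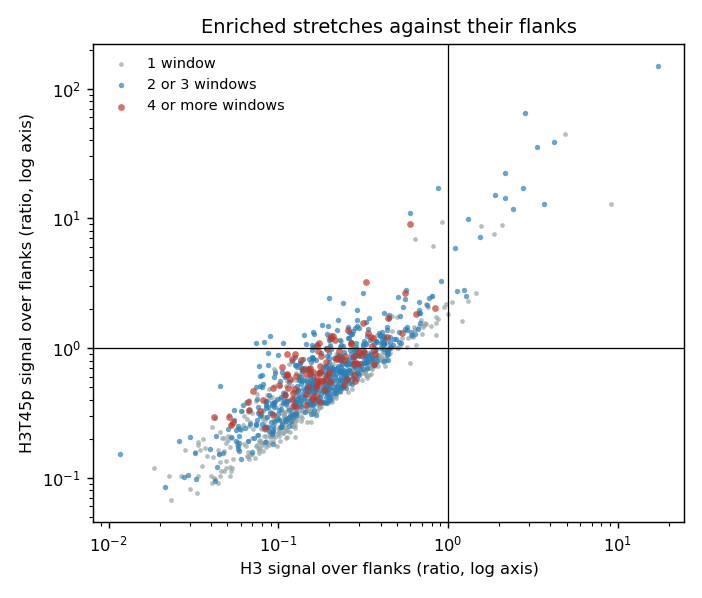
H3T45p signal over flanks (y axis) against H3 signal over flanks (x axis) for the stretches with H3T45p at least 2 times H3 in hydroxyurea, 1 point a stretch, coloured by width, on log axes; lines mark equality with the flanks. Most points lie at lower left, where both signals are under their flanks, and 201 lie at or above the horizontal line.

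In 201 stretches (17.8%) H3T45p was at or above its flanks. Their median H3T45p signal was 421 against 282 in the flanks, and their median H3 signal was 109 against 274. H3 was under its flanks in 176 of them. Of the 201, 28 lay within 20 kb of a chromosome end, and of the 926 with H3T45p under its flanks, 12 did. Among all 1137 stretches, including those without flanks, 50 were that near. Of the 76207 windows with enough reads, 305 were in the last 3 kb and 2590 at 3 to 20 kb. Where H3T45p was at least 2 times its flanks, in 50 stretches, 25 were within 20 kb of an end. H3 was at or above its flanks in 25 stretches, of which 18 were that near to an end. Windows without reads in any library were kept in the flanks, and near ends they lowered some flank signals. The H3 flank was 11.8 at chromosome 12 from 11101 and 38.4 at chromosome 14 from 783901, both with such windows. The counts near ends thus rest in part on flanks without reads.

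The form of the H3T45p signal changed with the width of the stretch. In stretches of 1 window the median H3T45p signal fell from 272 at 300 bp from the centre to 170 at 150 bp and 137 at the centre, and H3 fell from 257 to 128 and 49. Both medians were lowest at the centre. In stretches of 3 windows H3T45p had instead a summit at the centre. Its median was 201 in the windows just outside, 238 in the outer windows of the stretch and 350 in the middle, while H3 went from 152 to 64 and 49. In stretches of 4 windows the H3T45p medians were 193 outside, 213 in the outer and 339 in the inner windows, and those of H3 were 145, 69 and 53. At both widths the lowest H3T45p values were at the borders, between the summit and the occupied flanks.

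In untreated cells that summit was low at 3 windows and absent at 4. The H3T45p medians of the same 3-window stretches were 204 just outside, 142 in the outer windows and 155 in the middle, and those of H3 were 190, 94 and 68. For the 4-window stretches the H3T45p medians were 211 just outside, 149 in the outer and 147 in the inner windows. Over all widths, a window of the stretch had more H3T45p than both windows next to it in 424 of 1117 stretches that had both. That held in 18.9% of the stretches of 1 window, 40.1% of those of 2, 67.8% of those of 3, 71.4% of those of 4 and 74.5% of those of 5 or more. A wider stretch has more windows that can be the highest, which favours this order.

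**Figure D3:**
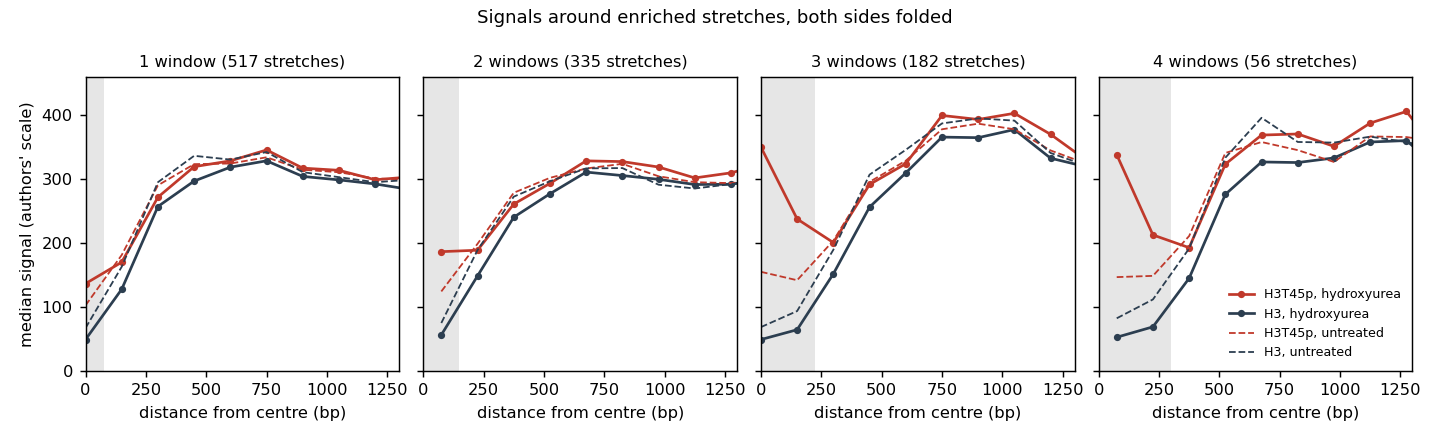
Median signal on the authors' scale (y axis) by distance from the centre of the stretch (x axis, bp, both sides folded) for stretches of 1, 2, 3 and 4 windows; red is H3T45p, dark blue is H3, solid lines are hydroxyurea, dashed lines untreated cells, and the shaded part is the stretch. H3 falls toward the centre at each width, and H3T45p in hydroxyurea turns upward at the centre in stretches of 3 and 4 windows.

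Among the 10 widest stretches both kinds of form were seen. The widest, at chromosome 12 from 232051 to 233550, was the only one of the 10 with a mean H3 signal above the genome median. In hydroxyurea H3T45p stood at 1033 and H3 at 360, and without treatment the values were 579 and 524. The ratio in hydroxyurea was 2.87 (exact binomial 95% interval 2.76 to 2.98). Window by window H3T45p was 244, 234, 620, 1148, 1033, 1422, 1624, 868, 1393 and 1745. H3 in the same windows was 119, 86.1, 216, 396, 299, 432, 423, 349, 527 and 753. Both signals rose along the stretch, and the ratio was highest in its interior, at 3.84 in the seventh window. Just past it H3T45p reached 2436 and H3 reached 1809, and the ratios of the next 3 windows were 1.38, 1.36 and 1.25.

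The stretch at chromosome 15 from 987301 to 988800 had the same width. H3T45p had a mean of 558 and H3 one of 127, a ratio of 4.39 (4.14 to 4.66). Without treatment they were 334 and 352. From its first to its last window H3 was 343, 271, 107, 94.2, 69.8, 66.1, 57.1, 67.1, 93.3 and 101. H3T45p was 966, 993, 518, 490, 413, 427, 521, 489, 424 and 335. H3 had a smooth minimum in the seventh window, where the ratio reached 9.13, and H3T45p stayed between 335 and 521 over the last 8 windows. The third to the fifth windows past the stretch again had ratios between 2.53 and 4.37.

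At chromosome 15 from 109201 to 110250 H3T45p formed a single summit over low H3. H3T45p was 548, 802, 923, 742, 486, 224 and 85.3 in the 7 windows, and H3 was 203, 125, 68.0, 71.6, 30.8, 59.8 and 42.6. In untreated cells H3T45p fell steadily over the same windows, from 264 in the first to 64.4 in the last. The ratio over the whole stretch was 6.34 (5.83 to 6.90) in hydroxyurea and 1.47 in untreated cells.

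The stretch at chromosome 12 from 370201 to 371400 had a summit of 776 and 840 for H3T45p in the fourth and the fifth windows. H3 was 48.0 and 75.2 there, and H3T45p was between 203 and 408 in the other windows of the stretch. The flanks were 721 for H3T45p and 582 for H3, so the summit was a little above the H3T45p flanks, while the mean H3T45p signal of the stretch, 415, was under them. The ratio was 6.08 (5.56 to 6.64) in hydroxyurea and 1.97 in untreated cells.

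A stretch of 8 windows at chromosome 5 from 140401 to 141600 held a main summit of both signals. H3T45p was 774, 1093 and 743 in the second to the fourth windows, where H3 was 63.4, 287 and 287. In untreated cells H3T45p was 225, 518 and 342 there and H3 was 93.5, 538 and 436. In hydroxyurea H3T45p rose again to 277 in the seventh window, where H3 was 39.0. At chromosome 7 from 483151 to 484350 the H3T45p summit of 482 lay in the third window, where H3 was 37.2, and at chromosome 15 from 978451 to 979500 the summit of 602 lay in the fourth window, where H3 was 54.4. At chromosome 7 from 856501 to 857550 it was 999, in the second window, with H3 at 177. The other 2 of the 10 widest, at chromosome 7 from 592051 and chromosome 11 from 354901, had ratios of 3.55 and 3.51 and H3T45p at 0.80 and 0.45 of the flanks.

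**Figure D4:**
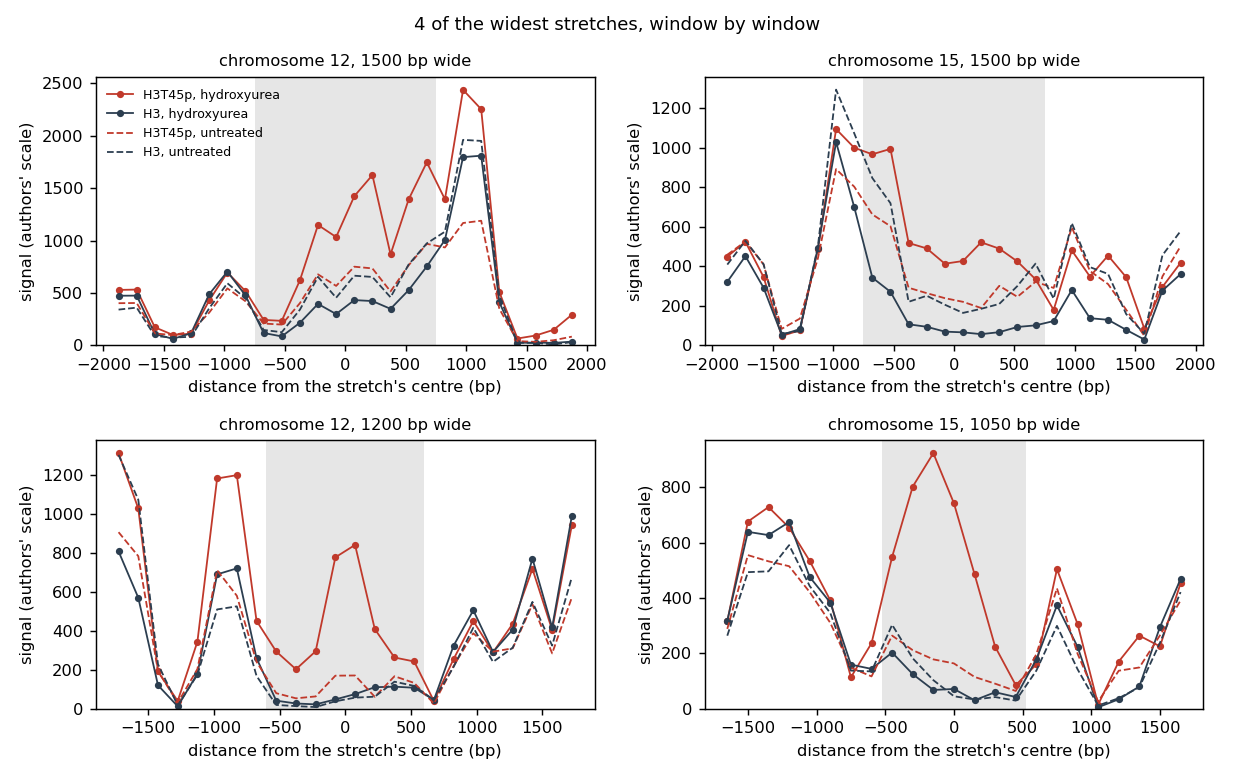
Signal on the authors' scale (y axis) by distance from the centre of the stretch (x axis, bp) in 4 of the 10 widest stretches; red is H3T45p, dark blue is H3, solid lines with points are hydroxyurea, dashed lines untreated cells, and the shaded part is the stretch. On chromosome 12 at 1500 bp width both signals rise together, and at 1050 bp width on chromosome 15 H3T45p has a summit of 923 where H3 is low.

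Stretches with much H3 were few. The mean H3 signal reached the genome median in 22 of the 1137 stretches, of which 5 were within 20 kb of an end and 17 were inner. After the wide stretch on chromosome 12, those with the most H3T45p reads away from the ends were at chromosome 12 from 460501 to 460800 and chromosome 5 from 192001 to 192300. In the first, H3T45p was at 2303 and H3 at 616 with hydroxyurea, against 3652 and 1855 without, so both were lower in hydroxyurea. The untreated H3 there stood far above the untreated genome median of 280. Copy number and reads that map to several places were not measured, so these levels may not be those of a single-copy site. In the second they were 896 and 308 with it and 388 and 597 without. These stretches were chosen for their order in this list after the values had been seen.

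The largest excess of H3T45p over H3, summed over the windows of a stretch, was at chromosome ends. Of the 10 largest, 6 touched an end and 8 lay within 20 kb of one. At chromosome 3 from 1 to 450 the H3T45p signal was 3641, 5444 and 3713 in the 3 windows, and H3 was 111, 140 and 333. In untreated cells H3T45p was 1399, 2183 and 1660 and H3 was 128, 161 and 367, so the excess was present there too at a lower level. The others at an end were on chromosomes 8, 11, 9, 14 and 4, with ratios of 43.8, 22.0, 5.93, 14.4 and 26.3 in hydroxyurea. In untreated cells their ratios were 19.2, 7.20, 2.23, 4.82 and 8.21 in the same order. The 5 single windows with the highest ratio at 200 or more reads, between 47.8 and 62.1, were all within 13 kb of an end.

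These ends made up a small part of all departures. Of 305 windows with enough reads in the last 3 kb, 34 passed (11.1%). The share was 2.20% at 3 to 20 kb and 1.79% at 20 to 50 kb. Beyond 50 kb it was 3.02%, and 2029 of the 2231 windows lay there. Between chromosomes the share ran from 2.27% on chromosome 3 to 4.16% on chromosome 5, and the number of stretches from 7.26 to 11.2 per 100 kb. Every chromosome had both departures.

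Stretches were spread along chromosomes with local clusters. The median gap between neighbouring stretches was 6.30 kb, with an interquartile range of 2.25 to 14.1 kb and a longest gap of 72.9 kb. Of 1121 gaps, 119 (10.6%) were 1 kb or less, and 21 of these were a single window. Of 595 bins of 20 kb, 100 held no passing window, and the median bin held 3. The densest bin, at chromosome 9 from 240001 to 260000, held 17 passing windows in 6 stretches. It was followed by 4 bins with 15, on chromosomes 12 (from 220001 and from 720001), 13 (from 540001) and 15 (from 980001). Those from 220001 and 980001, with 2 and 3 stretches, contain the widest stretches of chromosomes 12 and 15.

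The neighbourhood of a passing window was richer in passing windows for about 3 kb. At 150 bp from a passing window 51.2% of windows with enough reads passed too, at 300 bp 23.4%, at 450 bp 11.4%, at 600 bp 7.14% and at 900 bp 4.81%. The share was between 3.73 and 4.87% from 1050 to 3000 bp, and 2.81% at 3300 bp, near the 2.93% of all windows. It was 4.87% at 2700 bp and 3.90% at 5250 bp, from 102 and 81 pairs of windows, each higher than at the distances on either side. The same held at other distances, among them 1050 bp (4.87%), 1350 bp (4.83%) and 3900 bp (3.49%). Whether the share rises at a regular spacing was not tested. For the opposite departure the share was 7.01% at 150 bp and 1.27% at 300 bp, against 0.648% of all windows.

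**Figure D5:**
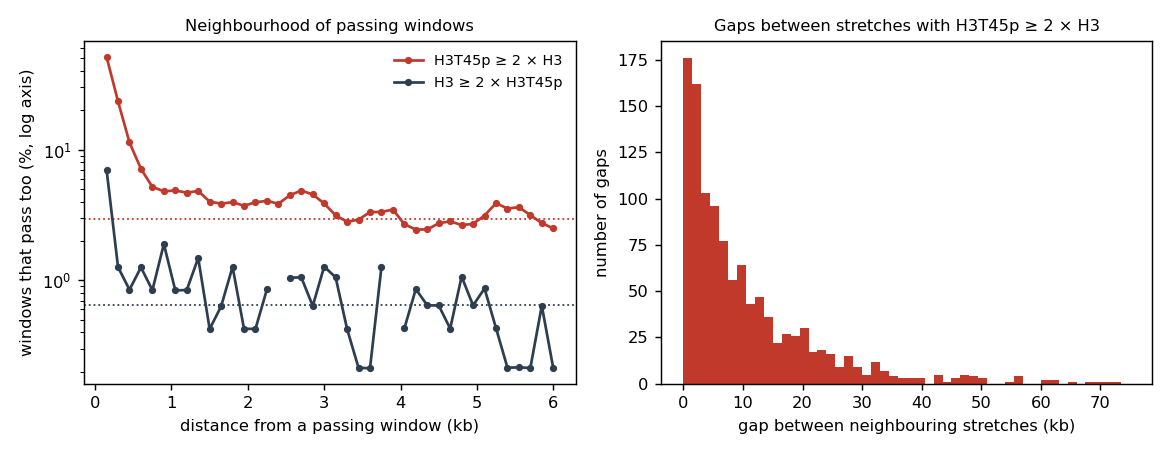
Left, share of windows that pass (y axis, %, log axis) by distance from a passing window (x axis, kb) for H3T45p at least 2 times H3 (red) and H3 at least 2 times H3T45p (dark blue), with dotted lines for the share among all windows and shares of 0 left out; right, number of gaps (y axis) by gap length (x axis, kb) between neighbouring stretches with H3T45p at least 2 times H3. The red share falls from 51.2% at 150 bp to near the share of all windows at about 3.3 kb, and short gaps are the most frequent.

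Most H3 valleys of the genome did not hold such a window. Valleys were taken as runs of windows with H3 under 50% of the genome median in hydroxyurea, a rule chosen after the data had been seen. There were 7116, and 1056 of them (14.8%) held a window with H3T45p at 2 or more times H3. By windows, valleys were 17.8% of those with enough reads and held 1924 of the 2231 that passed (86.2%). They also held 456 of the 494 with the opposite departure (92.3%). Of the 13550 valley windows 14.2% passed, against 2.93% of all windows, and the rule favours low H3. The share of valleys with a passing window rose with their width, from 5.03% of 3596 valleys of 1 window to 55.6% of 151 valleys of 6 or more. A wider valley offers more windows and is deeper, with a median H3 of 78.5 against 101 at 1 window, so width alone is not measured. With valleys taken from untreated H3, 12.6% of 7593 held such a window and 5.74% held one with the opposite departure. In those of 6 or more windows the shares were 38.1% and 31.3%. The median ratio over the untreated valleys was 0.95 in hydroxyurea.

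The peak list deposited by the authors holds about as many of these windows as it leaves out. Its 630 peaks cover 1200 windows, of which 1198 passed the rule, and these are 53.7% of the 2231. The 1033 passing windows outside the peaks had a median ratio of 2.36 against 4.51 inside. Their median H3T45p signal was 132 against 306 inside, while their median H3 was 54.4 against 59.8. The windows that the list leaves out thus had about the same H3 and less H3T45p. The list belongs to the same H3T45p library, and H3T45p exceeded H3 by at least 40.8 in every peak window. Its overlap with the passing windows is therefore no independent check, and these values only describe the list. By width, 22.8% of the stretches of 1 window overlapped a peak, 66.3% of those of 2, 95.6% of those of 3 and all 103 of those of 4 or more.

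The untreated pair was then read in the same stretches, which were chosen in hydroxyurea. The median ratio over stretches was 2.97 in hydroxyurea and 1.35 in untreated cells. The untreated value was not particular to these stretches. Over all 7116 H3 valleys the median untreated ratio was 1.21. The untreated class medians had ratios of 1.64 in windows with H3 under 12.5% of the median in hydroxyurea and 1.36 at 12.5 to 25%. How many other H3-poor windows had an untreated ratio of 2 or more was not counted. H3T45p was still at 2 or more times H3 in 248 of the 1137 stretches in untreated cells, and under H3 in 204. Among stretches of 5 or more windows the untreated ratio was 2 or more in 2 of 47, and among those of 3 windows in 48 of 182. The median H3T45p signal of a stretch was 190 with and 124 without treatment, and that of H3 58.0 and 82.5. H3T45p was higher in hydroxyurea in 1009 stretches and H3 was lower in 994. The choice by the ratio in hydroxyurea favours each of these directions, so they are values and no separate result.

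Stretches with H3 above H3T45p were valleys of both signals too. In the median H3 was at 0.27 and H3T45p at 0.11 of the flanks. The widest, at chromosome 13 from 504151 to 504600, had H3T45p at 17.1, 22.8 and 11.4 and H3 at 56.2, 74.3 and 49.8. In untreated cells H3T45p was 72.2, 47.8 and 31.2 there and H3 was 45.3, 38.4 and 19.7, so the order was the opposite. The 30 stretches of 2 windows had ratios of H3T45p over H3 from 0.24 to 0.49, with a median of 0.42. The 4 of them with the most reads in the pair, which the rule for named regions takes, were on chromosomes 6, 11 and 12 and had ratios from 0.43 to 0.49. The lowest ratio at 200 or more reads was 0.35 (0.25 to 0.48), at chromosome 4 from 139801 to 139950, with 47 reads for H3T45p and 170 for H3. The other 4 of the 5 lowest such windows had ratios from 0.39 to 0.42.

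Windows without H3 reads added little. H3 was at 0 in 3083 windows, and 27 of these had H3T45p reads. The most were 49 reads, at chromosome 13 from 1 to 150, under the minimum of 50 in the pair. The lower bound of the exact binomial 95% interval of its ratio was 16.1. The next windows, both on chromosome 5, had 13 reads (from 116851) and 7 reads (from 116101), and the last 2 of the 5 named had 4 each.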

How the data were processed

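ChIP-seq of H3T45p and of total H3 was read from 1 signal value per 150 bp window and library. The signal deposited by the authors is reads per window times 1 factor per library: all values were whole multiples of 1 read, to within 0.001 of a read, in 100% of nuclear windows. Each read is worth 1.14 for H3T45p and 0.906 for H3 in hydroxyurea. The submitters' processing notes list BWA 0.5.9-r16 and DESeq without saying what each did. The difference track deposited by the authors, a score of H3T45p minus H3, was only compared with the signals. The other deposited values used are the positions of the authors' peaks, which carry no score.

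A window passed where 1 signal was at least 2 times the other with 50 or more reads in the pair. Stretches are runs of passing windows. Intervals are exact binomial (Clopper-Pearson, 95%), and those of medians are order-statistic intervals. Reads are not independent molecules, so intervals cover counting error only. Regions were named by rule: the 10 widest stretches, the 10 with the largest summed excess, the 5 highest and 5 lowest single-window ratios at 200 or more reads, the 5 with most H3T45p reads at 0 H3 reads, and the 5 widest opposite stretches, with ties in width broken by more reads. The members and lists were chosen with earlier results of these data known. The planned gene lists were not run, since no source names the genome build. The stretch rule was tested on simulated data, with rises of H3T45p planted only in windows with a mean of more than 200 reads per library. The windows poor in H3, where most stretches lie, were not covered by it. Python 3.11.15, numpy 2.4.6, pandas 2.3.3, scipy 1.17.1 and matplotlib 3.10.9 were used.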

Additional observations from a re-analysis of the deposited data

Results flagged for a closer look

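In 10 of the named regions the order of H3T45p and H3 in hydroxyurea was the opposite of that in untreated cells. In 6 of these the exact binomial 95% interval of the untreated ratio held 1, so the untreated order was not distinguishable from equality within counting error. The difference was not tested, with 1 library a side, and the regions were chosen by their ratio in hydroxyurea. Untreated ratios above 1 were not particular to these regions. All windows were classed by H3 in hydroxyurea, in percent of its genome median. The untreated class medians had ratios of 1.36 at 12.5 to 25%, 1.20 at 25 to 50% and 1.10 at 50 to 100%. Above 200% the ratio was 0.78. Of the widest stretches with higher H3T45p, chromosome 15 (start 987301) had a ratio of 4.39 in hydroxyurea and 0.949 in untreated cells (interval 0.906 to 0.995), and chromosome 7 (start 856501) had 4.84 and 0.878 (0.83 to 0.93). Among the widest stretches with higher H3, the ratio was 0.284 in hydroxyurea and 1.46 (1.13 to 1.89) in untreated cells on chromosome 13 (start 504151). It was 0.445 and 1.03 (0.833 to 1.27) on chromosome 12 (start 750001), 0.491 and 1.63 (1.3 to 2.06) on chromosome 11 (start 51001) and 0.444 and 1.17 (0.917 to 1.5) on chromosome 12 (start 241351). For single windows it was 0.388 and 1.07 (0.789 to 1.46) on chromosome 8 (start 132151) and 0.388 and 1.10 (0.873 to 1.39) also on chromosome 8 (start 14401). The last pair had 0.406 and 1.30 (0.98 to 1.73) on chromosome 15 (start 307501) and 0.421 and 1.15 (0.822 to 1.6) on chromosome 6 (start 181801).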

How the results depend on the processing

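Of 70 alternative values for 8 results, 39 stayed within their limits and 31 moved (a count stays within 1.5 times, a median within its order-statistic interval). No reversal was looked for, and counts, widths and gaps cannot reverse. The interval was 300 to 300 bp for the width and 0 to 0 for the log2 ratio, so any change there counted as moved. The 2231 windows with higher H3T45p became 1399 at 200 reads, 4409 at a ratio of 1.5 and 1183 at a ratio of 3. The 494 windows with higher H3 became 936 with no read minimum, 259 at 100 and 44 at 200 reads, 2555 at a ratio of 1.5, 68 at a ratio of 3 and 39 with 10% of the median added to both signals, so this count depends most on low reads. The 1137 stretches became 757 at 200 reads, 2256 and 676 at ratios of 1.5 and 3, and 597 with a running mean of 3 windows. Their median width was 150 bp at ratios of 1.5 and 3. The median gap was 9.60 kb at 200 reads, 3.15 and 11.3 kb at ratios of 1.5 and 3, and 13.7 kb with the running mean. In the same order of settings H3T45p over flanks was 0.783, 0.573, 0.585 and 0.645, and H3 over flanks 0.261, 0.272, 0.131 and 0.244. With the 5 windows next to the stretch as flanks they were 0.614 and 0.205. The median log2 ratio over all windows was 0, and -0.027 with equal total reads and 0.0042 over windows with 50 or more reads, a setting added after the data had been seen. No paired analysis was possible because each group holds 1 library and the groups share fewer than 2 replicate numbers.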
